A study of Saccharomyces cerevisiae with 12 samples.

Results

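The PHO genes of budding yeast encode phosphatases and phosphate transporters, and their promoters are a classic model of how nucleosomes keep a gene closed. When phosphate is plentiful, the activator Pho4 is kept out of the nucleus and nucleosomes cover much of these promoters. When phosphate runs low, Pho4 enters the nucleus, binds E-box-like sites of the form CACGTG or CACGTT, and nucleosomes are lost. The 7 genes described here are PHO5, PHO3, PHO11 and PHO12 (secreted acid phosphatases), PHO8 (the vacuolar alkaline phosphatase), PHO84 (the high-affinity phosphate transporter) and PHO89 (a sodium-phosphate cotransporter). PHO3 is the exception in the group, since it is known as a constitutive, thiamine-repressed gene and not as a Pho4 target. For each gene, all CpG dinucleotides lying between 800 bp upstream and 500 bp downstream of the start codon (R64 annotation) were taken, which gave 338 CpG sites out of 354107 in the nuclear genome and 7 genes out of 6002. All 338 passed the minimum coverage.

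PHO3 (YBR092C, 427698 to 429101), PHO5 (YBR093C, 429548 to 430951) and PHO89 (YBR296C, 796798 to 798522) lie on the minus strand of chromosome II. PHO8 (YDR481C) lies on the minus strand of chromosome IV (1418550 to 1420250) and PHO84 (YML123C) on that of chromosome XIII (24037 to 25800). PHO11 (YAR071W) lies on the plus strand of chromosome I (225460 to 226863) and PHO12 (YHR215W) on that of chromosome VIII (552099 to 553502). The regions hold 39 CpG sites at PHO3, 55 at PHO5, 64 at PHO8, 44 at PHO11, 45 at PHO12, 44 at PHO84 and 47 at PHO89. The regions of PHO3, PHO8, PHO12 and PHO84 reach into the next gene upstream, which starts or ends 446, 180, 599 and 237 bp away, so part of their distal sites lie in other coding DNA.

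The measurements were made by ODM-seq (occupancy measurement via DNA methylation). The methyltransferase M.SssI methylated CpG sites that were not covered by a nucleosome or another protein in formaldehyde-crosslinked chromatin, and Nanopore reads gave the methylated share. Occupancy is 100% minus this share, after correction by a factor for each construct. All cells were of a single BY4741-derived clone, A9, whose chromosomal ABF1 carries an anchor-away tag (ABF1-aa-V5), so that rapamycin draws this Abf1 out of the nucleus. All were grown to log phase in YNB medium lacking leucine, a minimal medium that contains phosphate, and treated with 8 µg/mL rapamycin for 75 min. Abf1 is a general regulatory factor that binds many promoters and organizes nucleosomes next to its sites. By the labels, the cells carried pRS315 without an insert (no Abf1), pRS315-EM Shuffle, in which the order of residues in the essential motif of Abf1 is scrambled (EM shuffle), or pRS315 with intact ABF1 (WT Abf1). The paper built its designed variants in a minimal form of Abf1 that lacks IDR1, a disordered region of the intact protein. EM shuffle and WT Abf1 therefore differ in more than the order of the motif. Each had 2 biological replicates, taken from independent transformant clones, and each replicate gave an aliquot after 3 h and one after 4 h of methylation, which makes 12 libraries. Values below are means ± SD over the 2 biological replicates of a construct, with both aliquots added, unless a library is named.

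Coverage was a median of 32 to 94 calls per CpG site in a library, and the genome-average methylation was 28.0 to 30.3% in no Abf1, 23.3 to 25.3% in EM shuffle and 26.0 to 30.1% in WT Abf1. All 338 sites of the PHO genes had at least 18 calls in every library. The 95% Wilson interval of a single site in a single library was a median of 19.6 points wide, and that of a window a median of 5.73 points, which covers counting error only. The coverage of ABF1 relative to its flanks was 0.821 to 1.06 in no Abf1, 0.901 to 1.1 in EM shuffle and 1.78 to 1.92 in WT Abf1, so the libraries labelled EM shuffle were near no Abf1 in this measure. The coverage of LEU2, the marker gene of pRS315, was 0.745 to 1.02 times the nuclear median in no Abf1, 0.104 to 0.308 times in the libraries labelled EM shuffle and 0.461 to 0.719 times in WT Abf1. Whether the libraries labelled EM shuffle held the plasmid in every cell was not tested. Chromosome XI, which carries ABF1 but none of the PHO genes, had raised coverage in the libraries labelled EM shuffle. Relative to the nuclear median this coverage was 1.15 at both 3 h and 4 h in replicate 1, but 2.03 and 1.96 in replicate 2. In WT Abf1 it was 0.984 to 1.03. The 2 replicates labelled EM shuffle thus differed in this measure, and its part in their means and SDs was not tested. The libraries labelled EM shuffle are therefore named by their label. They also come from a labelled batch of their own, so batch and construct cannot be told apart in any comparison with them.

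The sequences that carry the Pho4 motifs are given from the R64 genome, read 5′ to 3′ on the strand of the gene, with motif matches and every CpG in capitals. They are shown because the motifs next to each other in one promoter had very different occupancies. Both strands of the 800 bp upstream of each gene were searched for CACGTG and CACGTT, so that the reverse complement counts as a match. The first form was found upstream of 6 of the 7 PHO genes, against 9.0% of 5997 genes, and the second upstream of 6 of 7, against 23.6%.
PHO5, chrII:431187-431327, minus strand, 376 to 236 bp upstream: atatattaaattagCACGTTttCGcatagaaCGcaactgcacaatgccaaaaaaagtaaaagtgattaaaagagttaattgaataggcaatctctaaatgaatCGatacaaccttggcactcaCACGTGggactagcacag
PHO11, chrI:225030-225194, plus strand, 430 to 266 bp upstream: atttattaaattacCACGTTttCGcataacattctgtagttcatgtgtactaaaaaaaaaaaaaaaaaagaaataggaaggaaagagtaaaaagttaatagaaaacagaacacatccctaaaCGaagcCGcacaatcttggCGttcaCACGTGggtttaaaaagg
PHO12, chrVIII:551667-551833, plus strand, 432 to 266 bp upstream: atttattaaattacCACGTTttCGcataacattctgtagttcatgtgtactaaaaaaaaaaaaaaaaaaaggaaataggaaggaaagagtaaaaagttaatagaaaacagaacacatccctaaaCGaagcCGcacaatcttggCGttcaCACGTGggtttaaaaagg
PHO89, chrII:798828-798999, minus strand, 477 to 306 bp upstream: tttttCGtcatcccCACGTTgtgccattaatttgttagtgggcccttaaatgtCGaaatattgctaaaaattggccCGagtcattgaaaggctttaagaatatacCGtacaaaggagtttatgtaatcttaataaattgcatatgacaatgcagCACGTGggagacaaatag
PHO84, chrXIII:26197-26250, minus strand, 450 to 397 bp upstream: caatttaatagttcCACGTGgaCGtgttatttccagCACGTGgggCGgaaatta
PHO8, chrIV:1420767-1420798, minus strand, 548 to 517 bp upstream: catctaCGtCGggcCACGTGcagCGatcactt

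The first question was whether these promoters were closed, as the name of the group implies. In 5 of the 7 genes the promoter-proximal window, 51 to 250 bp upstream of the start codon, was among the most occupied in the genome. Its occupancy in WT Abf1 was 83.6 ± 3.02% at PHO5, 84.0 ± 1.57% at PHO84, 81.6 ± 1.00% at PHO89, 80.4 ± 0.144% at PHO11 and 77.8 ± 0.755% at PHO12 (SD, n = 2). The median over all 5845 genes with such a window was 49.8%, and these 5 windows stood at percentiles 92.3 to 97.5 of all genes. The windows are not equally well sampled, since PHO11 and PHO12 had 9 CpG sites each, PHO5 had 6, PHO84 had 4 and PHO89 had only 2.

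PHO8 and PHO3 did not have this closed window. PHO8 had 50.6 ± 2.32% over 13 CpG sites in WT Abf1, at percentile 51.4, close to the median of all genes. PHO3 had 20.3 ± 2.60% over 2 CpG sites, at percentile 3.76, so its promoter-proximal window was among the most accessible in the genome. The high occupancy that the label of repressed nucleosomal promoters implies was thus found at 5 members in this window, and not at PHO8 and PHO3. Whether nucleosomes covered these sites, and whether the genes were repressed, was not tested.

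**Figure D1:**
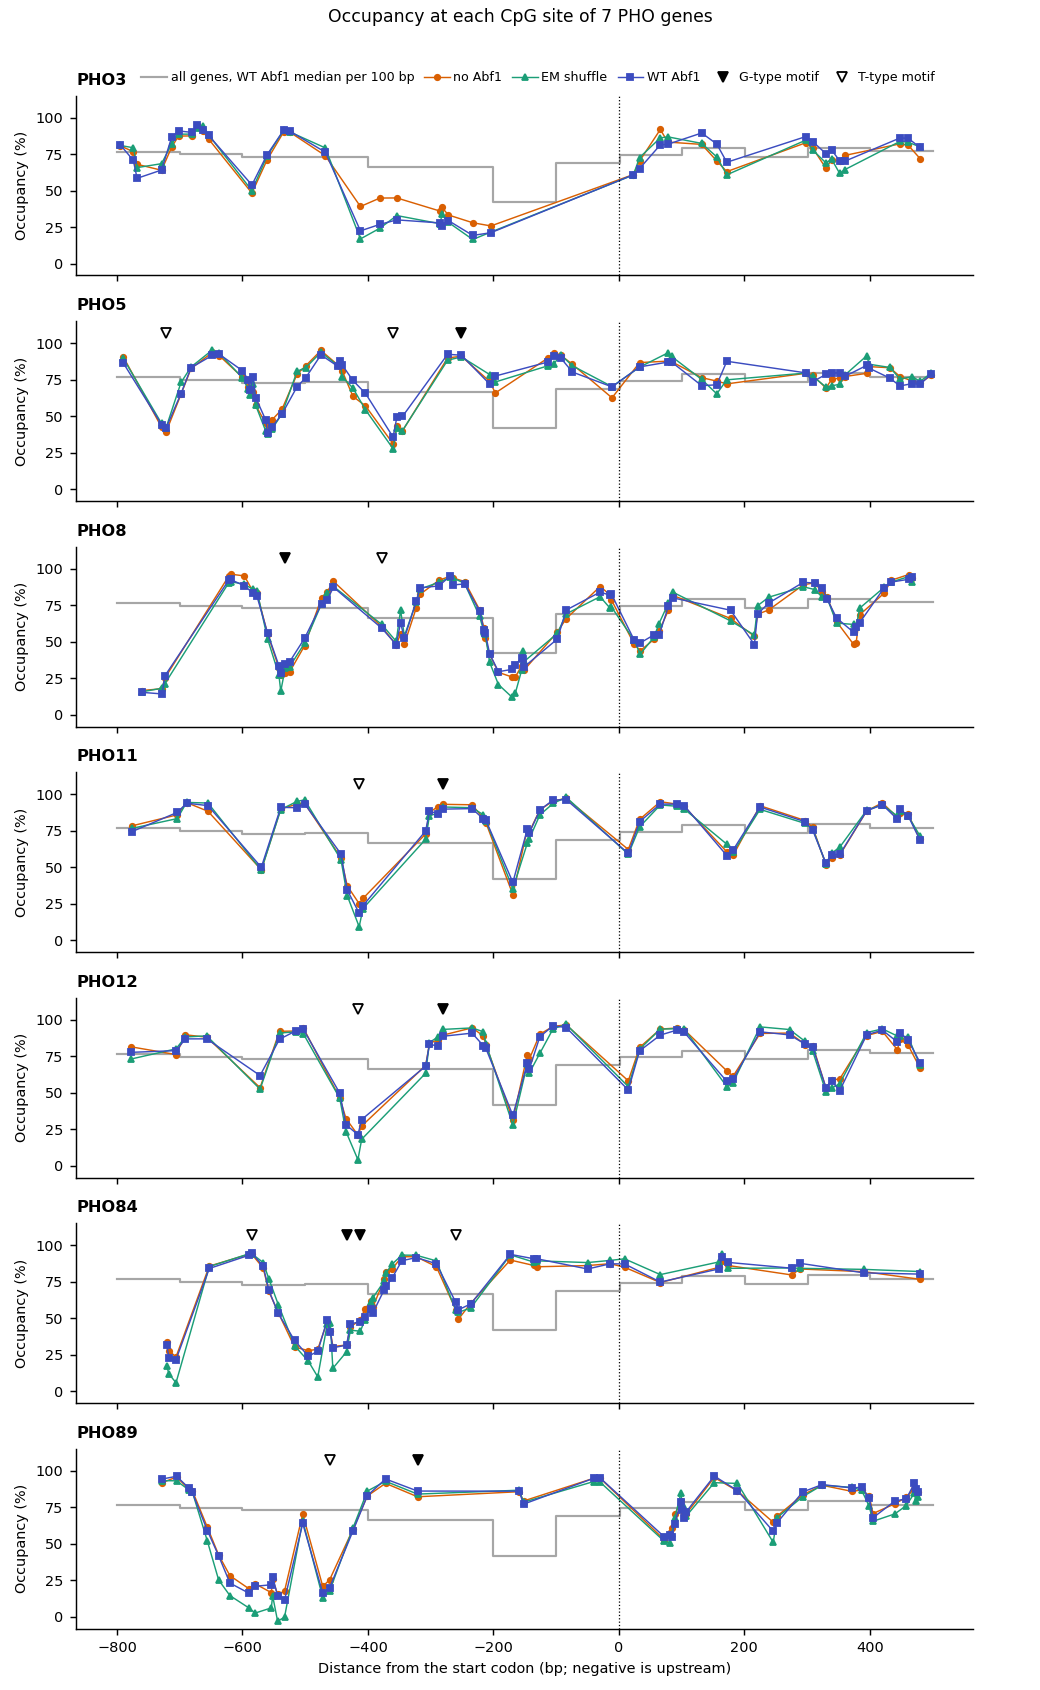
Occupancy in percent (y axis) at each CpG site by distance from the start codon in bp (x axis) for the 7 PHO genes, as means of 2 biological replicates for no Abf1, EM shuffle and WT Abf1. The grey line is the median of all genes in WT Abf1 per 100 bp, and triangles mark CpG sites in CACGTG (filled) and CACGTT (open). Between 200 and 101 bp upstream, where the median gene has 42.0%, the WT Abf1 means over the sites of PHO5, PHO11, PHO12, PHO84 and PHO89 lie at 70.6% or above, although the single sites at −169 of PHO11 and PHO12 are low.

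The closed promoters were also highly occupied in the bin of 200 to 101 bp upstream, where a typical yeast gene has its nucleosome-depleted region. This bin lies inside the window by which they were called closed, so its values are not separate evidence. The median of 5726 genes in WT Abf1 was 42.0% there, its lowest over all bins, with the middle 50% of genes between 25.0% and 67.3%. PHO84 had 91.7%, PHO5 had 85.7%, PHO89 had 81.6%, PHO11 had 74.5% and PHO12 had 70.6% in this bin in WT Abf1, all above that range, whereas PHO8 had 33.9%. PHO3 had no CpG site in it. The accessible stretches of the closed promoters lay farther upstream, between −729 and −345, apart from single sites of PHO11 and PHO12 at −169 with 39.7% and 34.5%. A stretch is called accessible here where neighbouring CpG sites had under 50% occupancy in WT Abf1, a limit chosen after the profiles were seen.

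At PHO5, the best known of these promoters, 21 of 55 CpG sites had over 80% occupancy in WT Abf1 and 8 had under 50%. The accessible sites lay in 3 short stretches at −729 to −722, −563 to −553 and −360 to −345. The most covered site, at −637 between the first pair of stretches, had 92.4%. The stretch at −360 to −345 held the CACGTT motif known as UASp1, the Pho4 site that textbooks place in the gap between positioned nucleosomes. The CACGTG motif known as UASp2 lay at −251, 109 bp closer to the gene, within the covered DNA.

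The CpG of the PHO5 CACGTT motif at −360 had occupancies of 26.7, 32.0, 34.7 and 31.2% in the no Abf1 libraries, 33.7, 26.5, 12.9 and 31.9% in the libraries labelled EM shuffle, and 27.9, 36.0, 35.5 and 47.1% in the WT Abf1 libraries. The CpG of the CACGTG motif at −251 had 91.5, 95.6, 90.5 and 86.1% in no Abf1, 89.3, 90.8, 92.1 and 90.6% in the libraries labelled EM shuffle, and 90.0, 93.6, 91.9 and 92.2% in WT Abf1. The constructs overlapped at both sites, while every library had a far lower value at −360 than at −251. The other CACGTT match of PHO5, at −722 in the first stretch, was accessible too, with 39.1 ± 0.291% in no Abf1, 41.9 ± 0.990% in EM shuffle and 41.7 ± 5.97% in WT Abf1.

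The same order of the 2 motif forms was found in 4 promoters, PHO5, PHO11, PHO12 and PHO89, each of which had an accessible CACGTT 109 to 140 bp upstream of a covered CACGTG. PHO84 had the opposite order. Averaged over all 6 preparations, the CACGTG site was above the CACGTT site by 59.5 ± 5.13 points at PHO5, 73.7 ± 7.27 points at PHO11, 74.9 ± 11.6 points at PHO12 and 62.9 ± 6.39 points at PHO89 (SD, n = 6). The CACGTG site was higher in 12 of 12 libraries at each of these 4 genes. At PHO84 both CACGTG sites were below the CACGTT site upstream of them, by −63.9 ± 4.65 points and −48.1 ± 5.04 points, and were higher in 0 of 12 libraries. An exact two-sided sign-flip permutation test over the 6 preparations gave p = 0.0312 for each pair, the smallest p it can give, and 0.0312 after adjustment over 6 pairs. The pairs are every CACGTG with the nearest CACGTT at most 200 bp farther upstream, a rule set after the values were seen. The p-values therefore describe how steady each gap was over the preparations, and cannot test for a shared order. The rule leaves out a CACGTT nearer to the gene. In WT Abf1, CACGTG was the lower form at PHO8 −532 (34.7%) with −378 (59.3%). It was also lower at PHO84 −412 (47.6%) with −260 (60.9%). The 3 constructs are pooled in the sign-flip test. PHO11 and PHO12 share their sequence, so they are not independent cases.

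At PHO11, the CpG of CACGTT at −414 had 25.1 ± 2.54% in no Abf1, 9.27 ± 0.882% in EM shuffle and 18.5 ± 4.39% in WT Abf1. The CpG of CACGTG at −281 had 93.1 ± 1.02%, 91.2 ± 1.02% and 89.8 ± 1.36% in the same order of constructs. PHO12 had 21.1 ± 0.621%, 4.20 ± 6.36% and 21.3 ± 1.31% at its CACGTT at −416, and 89.4 ± 1.2%, 93.3 ± 1.63% and 88.6 ± 1.61% at its CACGTG at −281. The low values of EM shuffle at the accessible site did not pass the test at either gene, and they move with the correction described below.

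PHO89 had 25.5 ± 3.69% in no Abf1, 18.0 ± 5.27% in EM shuffle and 20.1 ± 6.07% in WT Abf1 at its CACGTT at −461. Its CACGTG at −321 had 82.2 ± 6.60%, 84.0 ± 2.11% and 86.1 ± 0.998% in the same order. Upstream of the CACGTT site, PHO89 had a broad accessible stretch of 8 CpG sites, from −638 to −533, with 11.5% to 41.7% occupancy in WT Abf1. A single CpG at −504 with 63.9% separated it from the motif.

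At PHO84 and PHO8 the CACGTG form was the accessible one. PHO84 carries a pair of CACGTG motifs 22 bp apart, at −434 and −412, inside its largest accessible stretch, which ran over 9 CpG sites from −517 to −412. The site at −434 had 31.8 ± 0.789% in no Abf1, 27.1 ± 6.44% in EM shuffle and 31.6 ± 3.15% in WT Abf1. The site at −412 had 49.1 ± 3.04%, 41.1 ± 3.96% and 47.6 ± 2.39% in the same order. The CACGTT of PHO84 at −585 was the most covered of all 15 matches in WT Abf1, with 93.7 ± 0.500%, 94.2 ± 1.98% and 94.4 ± 0.798%, and a further CACGTT at −260 was intermediate at 60.9 ± 7.88% in WT Abf1. All 4 lie within YML122C, an open reading frame annotated on the same strand from 237 bp upstream of PHO84.

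The CACGTG of PHO8 at −532 lay in an accessible stretch of 4 CpG sites, from −542 to −525, that falls inside the coding sequence of the neighbouring gene CWC21, a splicing factor whose end is 180 bp upstream of PHO8. The site had 28.9 ± 4.69% in no Abf1, 31.8 ± 2.42% in EM shuffle and 34.7 ± 6.10% in WT Abf1. A CACGTT match at −378, also in CWC21, had 59.3 ± 2.67% in WT Abf1. PHO8 had 2 further accessible stretches, 7 CpG sites from −206 to −151 and 3 CpG sites from −760 to −724. The second of these holds the only match among the 7 genes to the Reb1 motif TTACCCG, a motif found upstream of 12.6% of all genes. Reb1, like Abf1, is a general regulatory factor.

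Seen against the genome, the 8 accessible motif sites of PHO5 (−722 and −360), PHO11, PHO12, PHO89, PHO84 (−434 and −412) and PHO8 (−532) stood at percentiles 6.81 to 35.4 among all upstream matches of the same motif in WT Abf1. The 4 covered CACGTG sites of PHO5, PHO11, PHO12 and PHO89 stood at percentiles 80.8 to 89.4 among 452 such sites. Both groups were formed by WT Abf1 occupancy, so their low and high ranks follow from that choice. The remaining CACGTT matches stood at percentiles 33.8 (PHO8 −378), 35.9 (PHO84 −260) and 92.0 (PHO84 −585). The medians over all matches were 58.3% for CACGTG and 72.8% for CACGTT. No difference between constructs was called at any of the 15 motif sites by the quasi-binomial test, with lowest adjusted p of 0.380 for no Abf1 against WT Abf1, 0.609 for EM shuffle against WT Abf1 and 0.296 for EM shuffle against no Abf1.

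**Figure D2:**
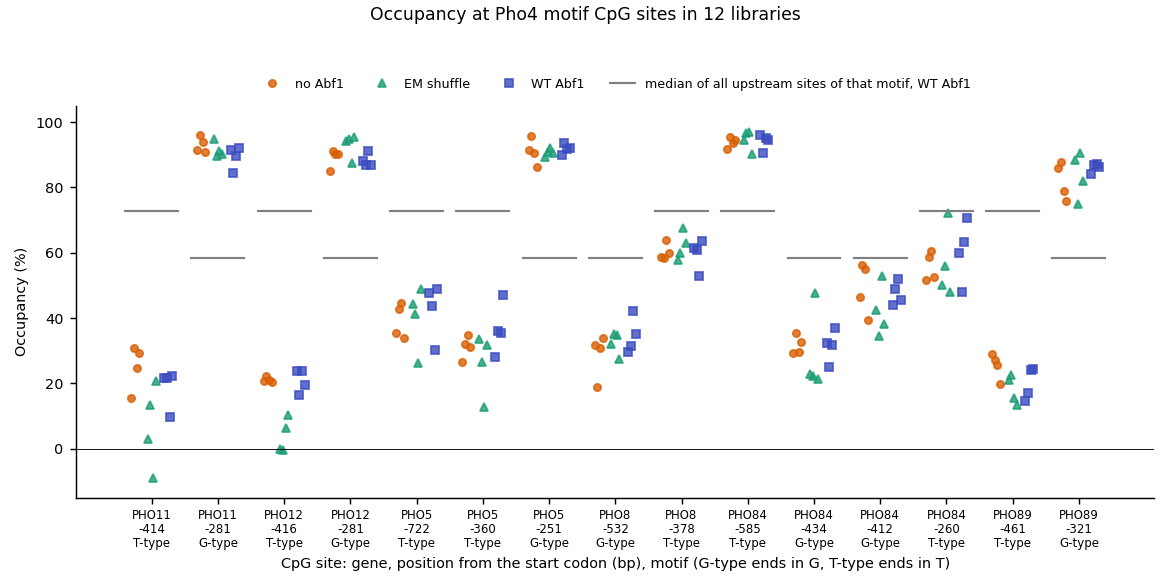
Occupancy in percent (y axis) at the CpG site of each of 15 Pho4 motif matches (x axis: gene, position in bp, and form of the motif, where the G-type is CACGTG and the T-type CACGTT), in the 4 libraries of each construct. Grey lines are the medians of all upstream sites of that form in WT Abf1, at 58.3% and 72.8%. Symbols of the 3 constructs overlap at most sites, and at PHO5, PHO11, PHO12 and PHO89 the G-type stands above 75% and the T-type that pairs with it below 50% in every library.

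PHO11 and PHO12, on chromosomes I and VIII, are near-identical copies, with 99% identity over the 800 bp upstream and 99.8% over the first 500 bp of the gene. Their profiles followed each other closely. Over 44 pairs of matching CpG sites the median difference in WT Abf1 was 2.37 points and the largest 11.8 points, at −570 of PHO11 and −572 of PHO12, where PHO12 was higher. Pearson's r over these sites was 0.98, as a description of sites within the same libraries. How the authors' alignment divided reads between the copies is not given in the sources used here, so the values of the copies are uncertain and may not be independent. The coverage of PHO11 relative to the nuclear median was 1.2 to 1.35 in no Abf1, 0.952 to 1.18 in EM shuffle and 1.23 to 1.33 in WT Abf1, while chromosome I as a whole was at 0.943 to 1.03. The part of this coverage in the PHO11 values was not tested.

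PHO3 and PHO5 are neighbours on chromosome II, 446 bp apart, and share 87.0% of the bases in their first 500 bp but only 53.7% upstream, within the 47.9 to 58.4% of the other pairs of upstream regions (PHO11 with PHO12 left aside). Their promoters had different profiles. All 8 CpG sites of PHO3 between −412 and −204 had 19.4% to 30.1% occupancy in WT Abf1, as many sites in a row as in the accessible stretch of PHO89. Farther upstream the PHO3 region lies in the coding sequence of PHO5, and there the only match among the 7 genes to the Abf1 consensus (both strands searched) was found, with a CpG at −663 that had 90.6 ± 1.78% in no Abf1, 94.6 ± 0.417% in EM shuffle and 91.8 ± 3.60% in WT Abf1. This consensus is found upstream of 22.3% of all genes.

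The second question was whether the PHO promoters depend on Abf1. In the fit across all genes, none of the 21 windows of the PHO genes was called for no Abf1 against WT Abf1 by the quasi-binomial test with limma-moderated dispersion (adjusted p under 0.05), and 0 of 21 had an unadjusted p under 0.05. None was called by limma on empirical logits. Among all genes, 11.5% of promoter-proximal windows, 6.2% of promoter-distal windows (251 to 800 bp upstream) and 3.4% of gene start windows (first 500 bp) were called. Log2 odds ratios of methylation, in which a positive value means less occupied, ran from −0.35 ± 0.26 (SE) at the PHO3 promoter-proximal window to 0.35 ± 0.18 at that of PHO84, with a median of −0.02 against 0.03 over all 17838 windows. The SE of a window ran from 0.10 to 0.30, and the 95% intervals reached at most to −0.89 (PHO3 promoter-proximal) and 0.72 (PHO84 promoter-proximal).

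PHO84 had the largest value toward lower occupancy. Its promoter-proximal window had 81.8, 79.4, 82.4 and 78.1% in the no Abf1 libraries, against 84.5, 80.3, 86.2 and 83.6% in the WT Abf1 libraries, and the libraries of the 2 constructs overlapped (adjusted p = 0.262 in the limma-moderated fit). PHO12 had the lowest unadjusted p of the windows that ran the other way, with 81.1, 78.9, 80.1 and 83.4% in no Abf1 against 77.5, 77.0, 77.0 and 80.7% in WT Abf1, which also overlapped (adjusted p = 0.272).

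For PHO5 the values of the constructs were close in every window. The promoter-proximal window had 86.8, 84.4, 82.1 and 83.1% in no Abf1, 79.7, 85.2, 79.7 and 86.3% in the libraries labelled EM shuffle, and 82.9, 79.1, 88.2 and 82.2% in WT Abf1, with the 3 constructs overlapping. Its mean was 84.1 ± 2.15% in no Abf1, 83.5 ± 1.1% in EM shuffle and 83.6 ± 3.02% in WT Abf1. The promoter-distal window of PHO5 had 68.3 ± 1.62%, 67.9 ± 1.35% and 69.5 ± 2.47% in the same order, and its gene start 78.3 ± 0.333%, 78.7 ± 1.49% and 78.6 ± 3.06%.

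In the promoter-distal window the members lay at or below the median of all genes, which was 70.7% in WT Abf1, except PHO11. PHO89 was the most accessible, with 53.2 ± 0.267% in no Abf1, 46.3 ± 0.906% in EM shuffle and 52.2 ± 0.413% in WT Abf1, at percentile 14.0 in WT Abf1. PHO84 followed with 59.0 ± 0.226%, 56.9 ± 0.917% and 57.9 ± 0.949% in the same order, at percentile 21.1. These are the transporter genes, and both were at percentile 95.9 or above in the promoter-proximal window, so the accessible DNA of their promoters lay in the distal part. PHO8 had 63.6 ± 0.0932%, 63.4 ± 1.04% and 63.0 ± 2.28%, and PHO3 had 68.1 ± 0.701%, 66.8 ± 0.383% and 65.6 ± 2.36%. PHO12 had 70.7 ± 0.300%, 68.6 ± 0.0431% and 70.6 ± 2.13%, and its copy PHO11 had 73.3 ± 0.0165%, 71.1 ± 0.623% and 72.6 ± 0.187%, at percentile 56.8.

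At the gene start, where the median of all genes was 75.6% in WT Abf1, the members differed less. PHO84 was the most occupied, with 82.3 ± 1.85% in no Abf1, 85.7 ± 3.08% in EM shuffle and 84.3 ± 1.87% in WT Abf1, at percentile 96.9. PHO8 was the least occupied, with 70.4 ± 1.22%, 72.7 ± 1.48% and 71.9 ± 1.48%, at percentile 26.1. The acid phosphatase genes other than PHO5 had 75.0 ± 0.448%, 75.0 ± 0.0379% and 77.9 ± 0.430% (PHO3), 77.6 ± 0.452%, 77.7 ± 0.340% and 77.3 ± 1.55% (PHO11) and 78.3 ± 0.262%, 78.1 ± 2.51% and 77.7 ± 1.87% (PHO12). PHO89 had 76.6 ± 1.01%, 74.5 ± 2.80% and 76.4 ± 0.395%. In WT Abf1 the 5 genes other than PHO84 and PHO8 thus lay between 76.4% and 78.6%, with differences of the size of their SDs.

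**Figure D3:**
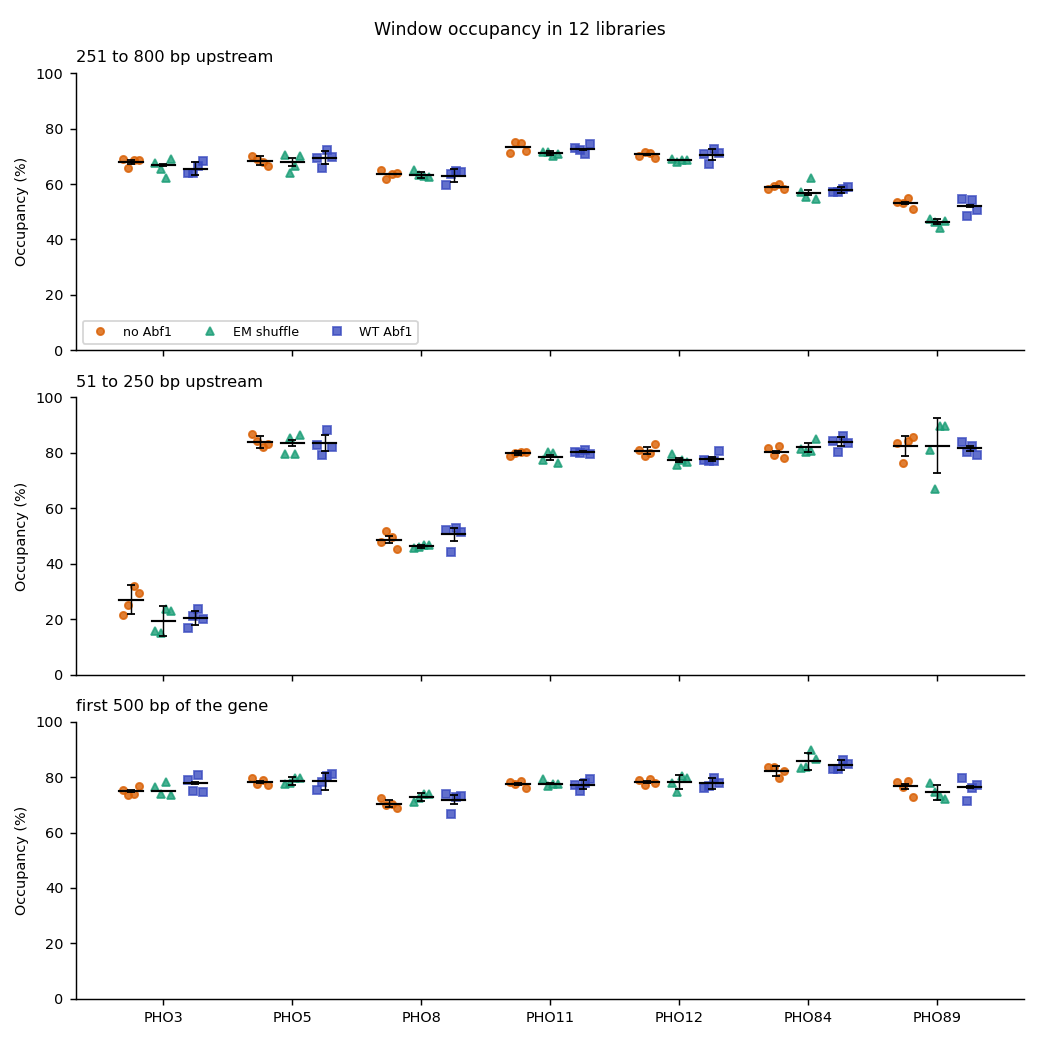
Occupancy in percent (y axis) of the 7 PHO genes (x axis) in 3 windows, with 1 symbol for each of the 4 libraries of a construct and the mean ± SD of its 2 biological replicates in black. In the window 51 to 250 bp upstream PHO3 lies between 15.2% and 32.0% and PHO8 between 44.4% and 52.9%, while the other 5 genes lie at 67.0% or above.

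The libraries labelled EM shuffle gave no called window either. Against WT Abf1, 0 of 21 windows were called (0 also by limma on empirical logits) and 0 had an unadjusted p under 0.05, with log2 odds ratios from −0.40 ± 0.29 (PHO3 promoter-proximal) to 0.27 ± 0.21 (PHO84 promoter-proximal) and intervals from −0.99 to 0.73. The background was 1.04% of promoter-proximal, 0.467% of promoter-distal and 0.1% of gene start windows. Against no Abf1, 0 of 21 windows were called (0 also by limma) and 2 had an unadjusted p under 0.05, where 12% of promoter-proximal, 6.4% of promoter-distal and 1.67% of gene start windows were called among all genes. One of the pair was the promoter-distal window of PHO89, with 47.3, 46.5, 44.2 and 46.6% in the libraries labelled EM shuffle. The no Abf1 libraries had 53.4, 53.3, 54.8 and 50.9% (adjusted p = 0.274 in the limma-moderated fit), and these corrected values did not overlap. Before correction, mean methylation was 46.8% in EM shuffle and 48.9% in no Abf1, so the direction depends on the correction. The other was the promoter-proximal window of PHO12 (log2 odds ratio 0.32 ± 0.15, adjusted p = 0.183 in the same fit).

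Values of the libraries labelled EM shuffle at accessible sites depend on the correction. The authors divided methylation by a factor of 0.871 for EM shuffle, which moves accessible sites the most and can push occupancy below 0, as at PHO11 −414 in 1 library (−8.89%) and at PHO12 −416 in 2 (−0.172 and −0.433%). Over the 65 CpG sites of the PHO genes with under 50% mean occupancy, EM shuffle was below WT Abf1 by a median of −4.74 points after the correction but was above it by 3.45 points before it, while over the 150 sites with over 80% the medians were 0.349 and 1.85 points. The test uses an offset on the logit scale in place of this factor. Without the offset, 2 windows were called for EM shuffle against WT Abf1 and 11 for EM shuffle against no Abf1, all with less methylation in EM shuffle.

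**Figure D4:**
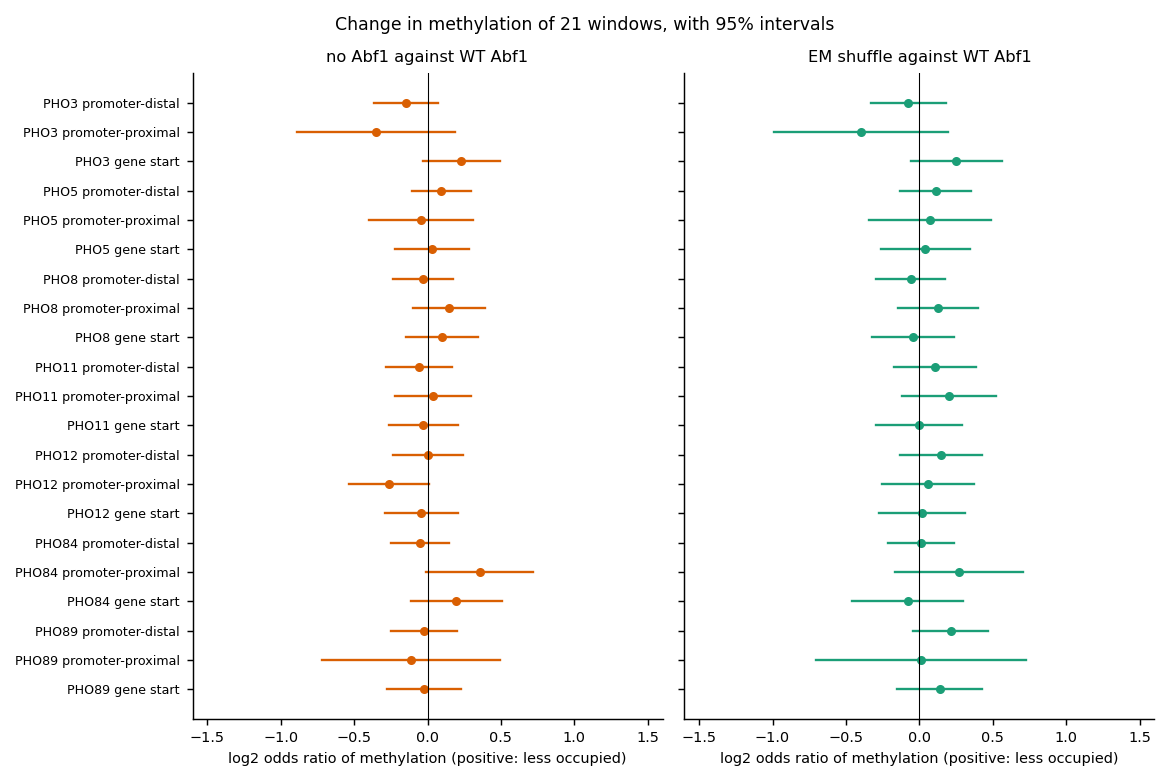
Log2 odds ratio of methylation (x axis, positive is less occupied) for 21 windows of the PHO genes (y axis) in no Abf1 against WT Abf1 and EM shuffle against WT Abf1, with 95% intervals from the quasi-binomial fit. Every interval includes 0, and the widest are the windows of PHO3 and PHO89 with 2 CpG sites.

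At the level of single CpG sites, 4 of 338 were called for no Abf1 against WT Abf1 where 4.24% of 353646 sites in the genome were called, a share of the PHO sites below that background. Of these 4, 3 had more occupancy in no Abf1 and all of these were at PHO3. For EM shuffle against WT Abf1 no site was called (background 0.211%, and 0 also by limma on empirical logits), and for EM shuffle against no Abf1 1 site was called (background 3.64%). An unadjusted p under 0.05 in the quasi-binomial fit was found at 30 of 338 sites for no Abf1 against WT Abf1. It was found at 18 for EM shuffle against WT Abf1 and at 28 for EM shuffle against no Abf1. The share of all sites or windows with such an unadjusted p was not computed. These counts, and those of the windows, therefore cannot be read as an excess or a lack. Single sites have few calls, and all 5 called sites lost the call in some alternative, as given in the closing section.

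Neighbouring sites were called together in the PHO3 promoter only. The sequence around the called sites is shown with its 3 CpG sites in capitals, at −412, −381 and −354.
PHO3, chrII:429442-429527, minus strand, 426 to 341 bp upstream: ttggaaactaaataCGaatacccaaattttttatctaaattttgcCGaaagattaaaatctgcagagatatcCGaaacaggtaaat
The CpG at −412 had 43.8, 34.2, 38.7 and 40.9% in no Abf1, against 24.1, 35.3, 16.4 and 17.0% in WT Abf1, and the libraries overlapped. The CpG at −381 had 52.7, 42.2, 38.6 and 47.1% in no Abf1, against 30.6, 27.8, 21.7 and 28.3% in WT Abf1, with no overlap. Occupancy was thus higher in no Abf1 at both, with log2 odds ratios of methylation of −1.11 ± 0.32 (adjusted p = 0.0202) and −1.11 ± 0.31 (adjusted p = 0.0136) in the limma-moderated fit. The calls were lost without WT Abf1 replicate 2 (log2 odds ratios −0.52 and −0.82, adjusted p = 0.665 and 0.372) or without no Abf1 replicate 1 (0.0701 and 0.200), and that at −412 also without no Abf1 replicate 2 (0.144). In EM shuffle these sites had factor-corrected occupancies of 17.0 ± 6.16% and 24.3 ± 11.9%, and the CpG at −354 missed the threshold (adjusted p = 0.057, for no Abf1 against WT Abf1 in the same fit).

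Because the promoter-proximal window of PHO3 holds only 2 CpG sites, values of a wider window of 1 to 400 bp upstream are given for it. This window includes the called site at −381 and its neighbour that missed the threshold, so it is not separate from the site calls. Over its 7 CpG sites PHO3 had 34.7, 34.4, 37.3 and 36.6% in no Abf1, 21.2, 23.0, 23.5 and 33.3% in the libraries labelled EM shuffle, and 22.6, 27.1, 24.9 and 30.4% in WT Abf1. Every no Abf1 library was above every WT Abf1 library. The mean was 35.8 ± 1.66% in no Abf1 against 25.9 ± 2.06% in WT Abf1, a log2 odds ratio of methylation of −0.57 ± 0.14 with an adjusted p of 0.00287 in the same limma-moderated fit, where 9.98% of all such windows were called. EM shuffle was not called against WT Abf1 (−0.36 ± 0.16, adjusted p = 0.303) or against no Abf1 (0.21 ± 0.14, adjusted p = 0.425) in this fit, whose offset places EM shuffle differently from the corrected occupancies. PHO3 was the only one of the 7 genes called in this wider window, which was set as an alternative and not as the main window. The call held in 8 of 11 further settings tried after seeing the data. These 8 include leaving out each EM shuffle replicate, which cannot change the estimate of this comparison and left it at −0.57. The call was lost without no Abf1 replicate 2 (log2 odds ratio −0.46) and without WT Abf1 replicate 2 (−0.60). It was also lost with the 4 h aliquots alone (−0.33, adjusted p = 0.485 in the limma-moderated fit). With 2 biological replicates a construct, an exact permutation test of this value could not go below p = 0.333.

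**Figure D5:**
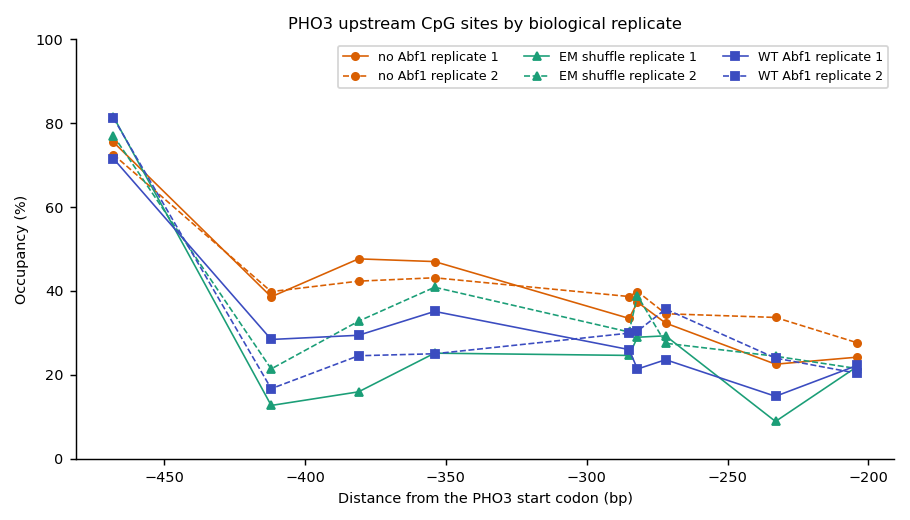
Occupancy in percent (y axis) at the CpG sites from 468 to 204 bp upstream of PHO3 (x axis, distance from the start codon in bp) in each biological replicate of no Abf1, EM shuffle and WT Abf1. At −412, −381 and −354 both no Abf1 replicates lie between 38.6% and 47.6%, above both WT Abf1 replicates.

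The other 2 called sites of no Abf1 lay in coding DNA that PHO3 and PHO5 share in large part. PHO3 +66 was more occupied in no Abf1 (91.9 ± 3.30% against 81.4 ± 0.745% in WT Abf1, log2 odds ratio −1.35 ± 0.42, adjusted p = 0.0343). PHO5 +172 was less occupied (72.1 ± 4.67% against 87.6 ± 1.51%, log2 odds ratio 1.41 ± 0.37, adjusted p = 0.00595 by the limma-moderated test), and its neighbours at +156 and +298 were not called. With single replicates left out, log2 odds ratios ran from −1.90 to −0.947 at PHO3 +66 and from 1.13 to 1.68 at PHO5 +172. Leaving out an EM shuffle replicate cannot change the estimate of this comparison. Leaving out any no Abf1 or WT Abf1 replicate ended the call at PHO3 +66, and most of these cases ended that at PHO5 +172.

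The site called for EM shuffle against no Abf1 was PHO12 −126, with 84.9, 76.6, 69.9 and 75.0% in the libraries labelled EM shuffle against 86.1, 87.5, 92.9 and 93.6% in no Abf1. The libraries did not overlap (log2 odds ratio 1.40 ± 0.37, adjusted p = 0.00893 by the limma-moderated test), and the call was lost without EM shuffle replicate 2 (0.439) or no Abf1 replicate 2 (0.296). At the same position PHO11 had 85.8 ± 8.23% in EM shuffle and 89.3 ± 3.50% in no Abf1, which was not called.

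The length of the M.SssI reaction was compared next, since the measured share depends on how far the reaction has gone. None of the 21 windows was called for 4 h against 3 h, and 1 (PHO11 promoter-distal) had an unadjusted p under 0.05 in the limma-moderated fit with preparation as a block. The background was 0% in all 3 kinds of window. Relative to the average of the genome, which had more methylation at 4 h in every preparation and is removed by the offset, no change was therefore detected. Without the offset, mean occupancy changed by −4.37 ± 5.52 points (SD, n = 6 preparations) in the window of PHO89 with 2 CpG sites, with 79.8% at 4 h and 84.1% at 3 h, and by −3.22 to 0.823 points in the other 20 windows.

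Other genes of the phosphate pathway were read from a list of 26 genes of phosphate signalling, transport and polyphosphate metabolism, of which 25 were matched by symbol. In no Abf1 against WT Abf1, 3 of 75 windows were called, 1 more occupied and 2 less occupied. These were 0 of 25 promoter-proximal, 2 of 25 promoter-distal and 1 of 25 gene start windows, against 11.5%, 6.2% and 3.4% of all such windows. The promoter-distal and gene start shares were thus close to those of all genes. The promoter-distal window of PHO4, the activator itself, was more occupied, with 63.6 ± 2.59% in no Abf1 against 58.1 ± 3.53% in WT Abf1 (adjusted p = 0.0365 by the limma-moderated test). This call was lost without any one of the 6 replicates (adjusted p from 0.0686 to 0.739), and also without the offset (0.149) and with either aliquot alone (0.0829 with 3 h and 0.340 with 4 h). That of PHM8, a phosphatase gene induced by low phosphate, was less occupied, with 43.9 ± 1.24% against 52.5 ± 0.482% (adjusted p = 0.000347), and this call held without each replicate in turn. The gene start of PHO2, the homeodomain partner of Pho4, was less occupied, with 79.8 ± 1.68% against 85.5 ± 2.18% (adjusted p = 0.00578, and 0.564 without no Abf1 replicate 1, 0.154 with the 3 h aliquots alone and 0.0639 with the 4 h aliquots alone). The median log2 odds ratios of the list were −0.09, 0.07 and 0.04 in promoter-proximal, promoter-distal and gene start windows, against −0.00, 0.02 and 0.05 over all genes.

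None of the 75 windows of the list was called for EM shuffle against WT Abf1 or for 4 h against 3 h. For EM shuffle against no Abf1, 4 were called, 2 in each direction. These were 1 of 25 promoter-proximal, 1 of 25 promoter-distal and 2 of 25 gene start windows. Among all genes, 12%, 6.4% and 1.67% of these 3 kinds were called. Only the gene start share was above that of all genes, and it rests on 2 calls. The promoter-proximal window of PHO85, the kinase that keeps Pho4 inactive, was less occupied in EM shuffle, with 59.7 ± 1.21% against 70.9 ± 0.529% in no Abf1 (adjusted p = 0.000543 by the limma-moderated test). The gene start of VTC1, a subunit of the polyphosphate polymerase complex, was less occupied too, with 67.0 ± 1.52% against 74.6 ± 1.89% (adjusted p = 0.00608). The gene start of PHO2 was more occupied, with 86.5 ± 2.07% against 79.8 ± 1.68% (adjusted p = 0.00792), and so was the promoter-distal window of PHM8, with 49.7 ± 0.759% against 43.9 ± 1.24% (adjusted p = 0.00295). The last 2 use the same no Abf1 samples as the comparison with WT Abf1, so they are not separate evidence. Leaving out single replicates ended each of these 4 calls at least once, that of PHO85 only without EM shuffle replicate 2 (0.0532). Without the offset for the genome average, the calls of PHO85 (log2 odds ratio 0.31, adjusted p = 0.0729 in the limma-moderated fit) and VTC1 (0.18, adjusted p = 0.191) were lost. With the 3 h aliquots alone those of PHO85 (0.118), VTC1 (0.205) and PHO2 (0.310) were lost, and with the 4 h aliquots alone that of PHM8 (0.250).

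The shape of each promoter was also compared with all other genes, as Pearson's r of mean WT Abf1 occupancy over 13 bins of 100 bp with at least 11 bins shared. The profile of PHO11 was most like that of PHO12, with r = 0.98 over 13 bins. For the other 5 members the gene with the highest r was no PHO gene. PHO3 was most like OCH1 (0.97), RPA14 (0.96) and AHC1 (0.96), and PHO8 was most like DPC25 (0.96), RPL18B (0.91) and MNN11 (0.89). PHO5 had the least close matches, with BSC5 (0.87), SSK2 (0.86) and SPE3 (0.85). PHO84 was most like ISF1 (0.90), MRN1 (0.87) and FAA4 (0.87), PHO89 most like NRK1 (0.91), PRR2 (0.90) and STL1 (0.89), and after the copy of each, PHO11 was most like DUG1 (0.85) and PRM2 (0.83) and PHO12 most like CIK1 (0.86) and DUG1 (0.85). These are descriptions over bins of the same libraries and carry no test.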

How the data were processed

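The deposited tables give, per CpG position, strand and library, the methylated share as a fraction (above 1 in places for EM shuffle), its complement as occupancy, the number of calls as a count, and the correction factor as a ratio. The authors called 5-methylcytosine with Dorado, aligned reads with minimap2 (version 2.17 in the submitters' processing notes) to sacCer3 (R64), counted calls with modkit, and divided each fraction by the factor, the genome average of the construct over that of WT Abf1. Here methylated calls were recovered as fraction times factor times count (whole at 100% of positions, to within 0.0001 per call) and strands were added. Sites needed 5 calls in every library and windows 2 such sites. Aliquots were added, and windows or sites of all genes were fitted by quasi-binomial logistic regression (pseudocount 0.5) over 6 preparations with a logit offset from the genome averages. Dispersions were moderated with limma 3.58.1 (R 4.3.3) along a trend with the information per feature and kept at 1 or more, a setting added after simulated data gave false calls without it. P-values were adjusted by Benjamini-Hochberg over each window kind and comparison. The text names all 7 members, all Pho4 motif sites, up to 5 called sites a comparison and called genes of the pathway list. Members and lists were chosen with earlier results of these data known. Replicate numbers did not pair the samples (correlations of deviations −0.0234 to 0.0137), and no 2 libraries were duplicates (variance 1.04 to 2.16 times counting noise). Alternatives were coverage, offset, aliquots, replicates, block, model, site minimum and window.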

Additional observations from a re-analysis of the deposited data

Results flagged for a closer look

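In 6 of 108 groups of 4 libraries (21 windows and 15 motif sites in 3 constructs) the highest or lowest library lay far from the others, and chance flags about 1 in 20 such groups. For windows, PHO12 promoter-proximal had 80.7% in WT Abf1 replicate 2 at 4 h, against 77.0 to 77.5% in the other 3 libraries, and PHO8 gene start had 66.6% in WT Abf1 replicate 1 at 4 h, against 72.8 to 73.9%. For motif sites, PHO11 −414 had 9.76% (95% Wilson interval 5.03 to 18.1%, 82 calls) in WT Abf1 replicate 2 at 3 h, against 21.6 to 22.4%. PHO84 −434 had 47.5% (29.1 to 65.0%, 35 calls) in the library labelled EM shuffle replicate 2 at 3 h, against 21.4 to 22.8%. PHO12 −281 had 87.6% (71.6 to 95.1%, 37 calls) in that same library, against 94.2 to 95.5%, and 85.0% (76.1 to 91.0%, 83 calls) in no Abf1 replicate 1 at 3 h, against 90.2 to 91.2%. The library labelled EM shuffle replicate 2 at 3 h also had the lowest median coverage, at 32 calls. No difference between constructs in the effect of reaction time was found in 63 tests of the interaction (lowest adjusted p 0.832 in the limma-moderated fit).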

How the results depend on the processing

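The count of 0 called PHO windows held for no Abf1 against WT Abf1 in every alternative but the promoter-proximal window of 1 to 400 bp upstream, which gave 1 (PHO3), and for 4 h against 3 h in every alternative run. Without the offset, 2 windows were called for EM shuffle against WT Abf1 and 11 for EM shuffle against no Abf1, and 18 sites were called for EM shuffle against no Abf1. In that setting 7 windows of EM shuffle against no Abf1 reversed, with log2 odds ratios of −0.29 (PHO3 promoter-distal), −0.35 (PHO5 promoter-distal), −0.30 (PHO84 promoter-distal), −0.34 (PHO3 gene start), −0.35 (PHO5 gene start), −0.34 (PHO11 gene start) and −0.30 (PHO12 gene start), since the lower methylation of the whole EM shuffle genome is then left in. The count of 4 called sites of no Abf1 against WT Abf1 fell to 1 with 3 h aliquots only, and the site called there was none of the 4. The count was 0 with 4 h aliquots only and 0 by limma on empirical logits, and it also fell with some replicates left out. The 1 site of EM shuffle against no Abf1 became 0 with 3 h aliquots only and 0 by limma, and 0 to 1 with a replicate left out. A construct left with 1 replicate was assumed to vary like the others. The replicate block kept 0, 0 and 0 windows and 4, 0 and 1 sites, and of the calls named it ended only that of the PHO4 promoter-distal window (log2 odds ratio −0.32, adjusted p = 0.106). The trend and the lower limit of the dispersion were added after seeing the data, and moderation without them changed no count of PHO windows or sites by over 1.5 times. Window occupancies moved by at most 10.4 points uncorrected, 4.28 points with single aliquots and 7.03 points with single replicates, and not at all with a coverage minimum of 10. Depth limits single sites most, where a 95% interval in 1 library was up to 48.1 points wide, against up to 30.5 points for a window.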
